A study of Rattus norvegicus with 65 samples.

Results

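The interferon-stimulated genes described here are Isg15, Mx1, Mx2, Oasl, Rtp4, Ifgga2l1 and Irf7, chosen by symbol. They are 7 of the 14217 genes on the array, and all probe sets annotated to 1 of these symbols alone were taken, 8 of 20826. The values are log2 signals of rat liver RNA on Affymetrix arrays, with 1 array for each of 65 rats. The animals were male Sprague-Dawley rats, 6-week old, each given 1 of 10 compounds or left untreated as controls. In the genotoxic (GTX) set the treated groups were 2-AAF (an aromatic amide), 3MeDAB (an azo dye) and DEN (diethylnitrosamine), each as long and short, with 1 control group (20 arrays). In the nongenotoxic (NGTX) set they were 1,4-Dioxane (a solvent), Clofibrate (a lipid-lowering drug) and DL-Ethionine (an analogue of methionine), each as long and short, with 1 control group (21 arrays). The test set held DCP (a chlorinated propanol), ME (methyleugenol), SN (sodium nitrite) and Urethane, each as long and short, with no control (24 arrays), so its groups are set only against each other. The descriptions of the test arrays give 3 doses for long and 1 dose for short, at 50 for DCP, 300 for ME, 50 for SN and 500 for Urethane, with no unit. Every group has 3 rats except DEN short, which has 2. The labels give 72 h for long and 3 h for short, whereas the treatment protocol has the repeatedly dosed rats killed 24 h after dosing, so the groups are called long and short only. Both controls are labelled without a time and each serves 6 treated groups of its set, so the comparisons with a control within a set are not independent of each other. The replicates are separate rats, and p-values measure the spread between them.

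Interferons are secreted signalling proteins, and those of type I are released by cells on sensing foreign or misplaced nucleic acid. Type I interferons signal through a receptor and kinases of the JAK family to a DNA element called the interferon-stimulated response element (ISRE), while interferon gamma acts mainly at the gamma-activated site (GAS). In liver, hepatocytes and the resident macrophages (Kupffer cells) both carry the receptors and turn on these genes. Of the members, Irf7 is the transcription factor that amplifies the type I response. Isg15 is a ubiquitin-like protein that is attached to other proteins, Oasl is related to the oligoadenylate synthetases that sense double-stranded RNA, and Mx1 and Mx2 are dynamin-like GTPases that block viruses. Rtp4 is a membrane receptor chaperone induced by interferon. Ifgga2l1 belongs to the immunity-related GTPases, a family known in mouse mainly as targets of interferon gamma.

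Promoter windows are shown as background on the members. Whether their letters bear on the members' patterns across the groups, or on that of Ifgga2l1, was not tested. RefSeq promoters of the rat build GRCr8 (250 bases before to 50 after the gene start) were matched for 4 of the 7 members: Mx1 (chr11:50294557-50294856, minus strand), Oasl (chr12:47356243-47356542, minus strand), Ifgga2l1 (chr18:56031657-56031956, plus strand) and Irf7 (chr1:205799974-205800273, minus strand). The windows are written 5′ to 3′ in the direction of the gene. The strings searched, on both strands, were the ISRE core (GAAA, then any 2 bases, then GAAA) and the GAS core TTCNNNGAA. Capitals mark every match, and the matches shown do not overlap.
Mx1: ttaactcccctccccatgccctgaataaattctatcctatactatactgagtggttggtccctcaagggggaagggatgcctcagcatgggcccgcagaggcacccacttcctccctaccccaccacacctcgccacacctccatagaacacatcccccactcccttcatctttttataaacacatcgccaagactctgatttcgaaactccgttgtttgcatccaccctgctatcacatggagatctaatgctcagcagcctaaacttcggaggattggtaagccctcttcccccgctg
Oasl: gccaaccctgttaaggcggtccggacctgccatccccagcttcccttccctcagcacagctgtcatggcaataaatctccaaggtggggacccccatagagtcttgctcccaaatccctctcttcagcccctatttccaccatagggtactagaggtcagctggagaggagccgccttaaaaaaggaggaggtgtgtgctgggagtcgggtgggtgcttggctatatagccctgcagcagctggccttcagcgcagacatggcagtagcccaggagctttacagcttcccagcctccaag
Ifgga2l1: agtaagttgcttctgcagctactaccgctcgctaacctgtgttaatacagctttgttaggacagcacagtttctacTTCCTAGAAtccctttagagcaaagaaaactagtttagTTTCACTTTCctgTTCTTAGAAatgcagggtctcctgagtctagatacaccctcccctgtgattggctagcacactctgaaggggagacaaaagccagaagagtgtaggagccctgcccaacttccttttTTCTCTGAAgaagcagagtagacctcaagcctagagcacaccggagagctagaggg
Irf7: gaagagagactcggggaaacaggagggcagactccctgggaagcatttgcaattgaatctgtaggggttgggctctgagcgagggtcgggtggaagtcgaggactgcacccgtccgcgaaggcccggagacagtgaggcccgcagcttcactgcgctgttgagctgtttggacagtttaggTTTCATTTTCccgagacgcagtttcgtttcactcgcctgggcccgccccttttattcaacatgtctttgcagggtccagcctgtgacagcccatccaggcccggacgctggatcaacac
Ifgga2l1 held 1 ISRE core, TTTCACTTTC, at bases 115 to 124 of its window, and 3 GAS cores, TTCCTAGAA, TTCTTAGAA and TTCTCTGAA, at bases 77 to 85, 128 to 136 and 245 to 253. Irf7 held 1 ISRE core, TTTCATTTTC, at bases 182 to 191. No match to either string lay in the windows of Mx1 and Oasl, which says only that these letters are not in these windows. The ISRE core was found in 1312 of 33469 windows of the same length (3.92%) and the GAS core in 2970 (8.87%). The ISRE core was also in 38 of 65 windows of other interferon-stimulated effectors (58.5%) and in 9 of 17 windows of antigen processing genes (52.9%). It was in 0 of 9 windows of receptor and signalling genes, 0 of 5 of other interferon regulatory factors, 1 of 8 of feedback inhibitors and 2 of 10 of sensors. The GAS core was in 16 of 65 windows of other effectors (24.6%) and 1 of 17 of antigen processing genes. For receptor and signalling genes it was 3 of 9, for other regulatory factors 2 of 5, for feedback inhibitors 2 of 8 and for sensors 1 of 10.

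Members differed in level and in spread. A member was called higher or lower in a comparison where limma's moderated test, fitted over all genes that passed a filter on low signal, gave an adjusted p (Benjamini-Hochberg) under 0.05. All 7 genes passed this filter in both fits. Mx2 has 2 probe sets, and the dimmer one, at means of 3.07 to 4.96 over the 22 groups, did not pass the filter, so Mx2 is described by the brighter one. Mx1 and Mx2 are close relatives, as are Oasl and the neighbouring Oasl2, and Ifgga2l1 and the neighbouring Ifgga4l, so probes could read a relative too, which was not tested.

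The most pronounced change was in DL-Ethionine long, where 6 of the 7 members rose against the NGTX control and Ifgga2l1 fell. Of all 11013 genes tested in this comparison 30% were called higher and 23% lower, so a single call says little here. Isg15 was at 13.30, 12.997 and 12.65 in the 3 DL-Ethionine long rats, against 8.98, 8.67 and 8.70 in the 3 controls. All treated rats lay far above all controls, and the difference was 4.20 ± 0.22 on the log2 scale (the value after ± is the standard error here and below unless marked SD, adjusted p = 4.3e-16), an 18.4-fold higher signal. Oasl was at 11.47, 11.19 and 11.33 in DL-Ethionine long, against 7.17, 7.03 and 7.09 in the control, a difference of 4.23 ± 0.16 (adjusted p = 1.07e-19). The 2 groups again did not overlap, and Oasl varied least among the members in the treated rats (SD 0.14). Mx1 was at 10.30, 10.03 and 9.90 in DL-Ethionine long, against 6.91, 6.98 and 7.22 in the control, a difference of 3.04 ± 0.33. Mx2 was at 10.21, 9.84 and 10.04 in DL-Ethionine long, against 8.37, 8.07 and 8.21 in the control, a difference of 1.81 ± 0.32. Both Mx genes were thus higher in every treated rat than in any control, Mx1 by more than Mx2.

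Irf7, the regulator, was at 11.37, 11.37 and 11.07 in DL-Ethionine long, against 9.04, 8.93 and 8.89 in the control, a difference of 2.32 ± 0.29 (adjusted p = 7.21e-08). Rtp4 was at 11.53, 11.53 and 10.62 in DL-Ethionine long, against 9.98, 10.14 and 10.26 in the control, a difference of 1.09 ± 0.32 (adjusted p = 0.00513). The third rat was the lowest of its group in Rtp4 and still above every control. Ifgga2l1 went the other way. It was at 9.73, 9.48 and 9.24 in DL-Ethionine long, against 10.97, 10.52 and 10.60 in the control, and fell by 1.22 on the log2 scale (SE 0.38, adjusted p = 0.00749). All 7 calls held in each of 10 alternative settings and with each of the 6 rats left out in turn. The size of the Mx2 difference was less stable than its call: it ran from 0.84 to 1.91 over these fits, against the 1.81 given above.

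**Figure D1:**
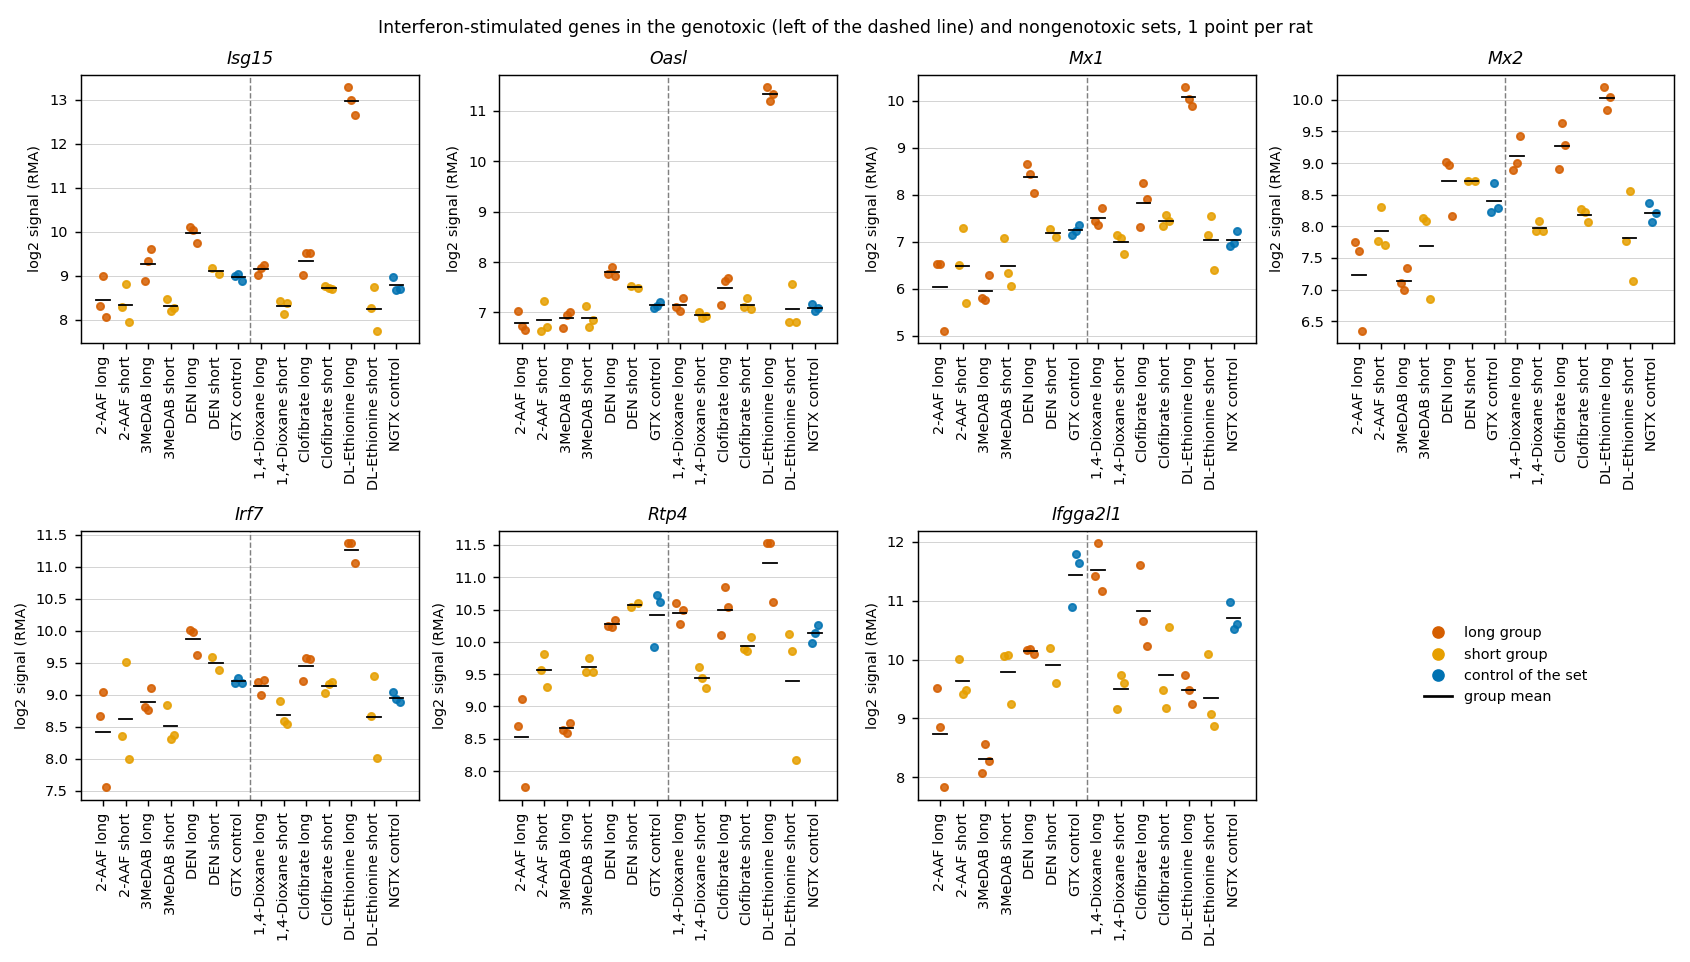
Log2 signal of the 7 members (y axes, RMA values) in each rat of the genotoxic set (left of the dashed line) and the nongenotoxic set (right of it), with the control last in each set; black bars are group means. DL-Ethionine long has the highest mean in every panel except that of Ifgga2l1, where it lies below its control.

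The rise in DL-Ethionine was seen in long and not in short rats. In DL-Ethionine short, Isg15 was at 8.27, 8.75 and 7.74 and Oasl at 6.81, 7.56 and 6.80, within or below the range of the long groups of the other NGTX compounds. Rat 2 was the highest of DL-Ethionine short in Isg15, Oasl, Mx1, Mx2 and Irf7, and rat 3 was the lowest in Isg15, Oasl, Mx1, Mx2, Irf7, Rtp4 and Ifgga2l1. Against the NGTX control, 1 member was called in DL-Ethionine short, Ifgga2l1 at -1.35 ± 0.38 (adjusted p = 0.0313), where 3.05% of genes were called lower. DL-Ethionine long against short gave 6 members higher, where 30.6% of genes were called higher: Isg15 by 4.73 ± 0.22, Oasl by 4.27 ± 0.16, Mx1 by 3.05 ± 0.33, Irf7 by 2.61 ± 0.29, Mx2 by 2.21 ± 0.32 and Rtp4 by 1.84 ± 0.32. Ifgga2l1 did not pass between the 2 durations (0.14 ± 0.38, adjusted p = 0.786). Its 95% interval ran from -0.63 to 0.91.

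DL-Ethionine long also stood apart from the other NGTX compounds. It was higher than 1,4-Dioxane long in 6 members, where 31.7% of genes were called higher, and Ifgga2l1 was lower by 2.04 on the log2 scale, where 23.8% were called lower. Isg15 differed by 3.83 ± 0.22 and Oasl by 4.18 ± 0.16 in that pair. Against Clofibrate long, 5 members were higher (31.9% of genes) and Ifgga2l1 was lower at -1.35 ± 0.38 (23.6% of genes). Rtp4, at 0.73 ± 0.32, missed the threshold there (adjusted p = 0.0566). The Mx2 difference from Clofibrate long, 0.75 ± 0.32, passed in 1 of 6 fits with a rat left out, and the Rtp4 difference from 1,4-Dioxane long, 0.77 ± 0.32, likewise in 1 of 6 (adjusted p up to 0.188 and 0.163). These 2 calls were kept in 6 and 7 of 10 alternative settings. The Mx2 difference from 1,4-Dioxane long, 0.92 ± 0.32, failed without rat 1 of either group and with the mean of all probe sets. DL-Ethionine short against 1,4-Dioxane short and against Clofibrate short gave no member call, where 0.854% and 1.03% of genes passed in either direction. At an unadjusted p under 0.05 it was 0 and 1 of 7 members, beside 1532 and 1498 of 11013 genes.

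The lists of other pathway genes were drawn up from textbook knowledge with earlier results of these data known, so their counts are a description. Of 52 other interferon-stimulated effectors tested in DL-Ethionine long against the NGTX control, 32 rose, 9 fell and 11 did not pass, with a list median of 0.62 against 0.03 over all genes. Ifit3, a protein that binds foreign RNA complexes, rose by 3.25 ± 0.26 on the log2 scale. Cxcl10, a chemokine that draws T cells, rose by 3.06 ± 0.27, and Rsad2 (viperin), which makes an antiviral nucleotide, by 2.99 ± 0.27. Herc6 rose by 2.44 ± 0.19. The members of that list that fell included Cxcl11 (-1.56 ± 0.18), Ifi35 (-0.85 ± 0.13), Irgm2 (-0.82 ± 0.12) and Helz2 (-0.77 ± 0.19), 4 names chosen after their values were seen. Irgm2 is, like Ifgga2l1, an immunity-related GTPase.

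Stretches around the ISRE core are shown for 3 of the 4 effectors with the largest change in DL-Ethionine long: Ifit3 (chr1:241527257-241527316, plus strand), Cxcl10 (chr14:15988816-15988857, plus strand) and Rsad2 (chr6:48788233-48788292, minus strand), all from GRCr8. Capitals mark the core, which starts 44, 243 and 147 bases before the gene start.
Ifit3: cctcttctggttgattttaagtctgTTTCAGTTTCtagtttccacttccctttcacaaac
Cxcl10: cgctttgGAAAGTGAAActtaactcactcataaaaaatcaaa
Rsad2: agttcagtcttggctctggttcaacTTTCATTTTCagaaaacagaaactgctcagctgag
Among the effectors that rose, 20 of 29 with a window held the ISRE core. Among those that fell it was 2 of 9, and among those not called 6 of 9. The GAS core was in 6 of 29, 3 of 9 and 3 of 9 of these windows. These are counts of letter matches with no test, and a match is not a site.

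Antigen processing genes followed in DL-Ethionine long, with 11 of 16 higher, 1 lower and 4 not passing (list median 0.56). The class I gene RT1-CE5 rose by 3.71 ± 0.37, the peptide transporters Tap1 and Tap2 by 1.51 ± 0.19 and 0.85 ± 0.13, and RT1-T24-4 by 1.14 ± 0.44. Class I genes of the rat are near-identical copies of each other, so single ones are uncertain. Interferon ligands could not be followed: 3 of the 10 genes listed are on the array and none of those passed the filter. Of 10 receptor and signalling genes, 3 rose and 3 fell, near the shares over all genes, with Irf9, a DNA-binding factor of type I interferon signalling, at 0.95 ± 0.16, Tyk2 at -0.84 ± 0.15, Ifngr1 at 0.78 ± 0.12 and Jak1 at 0.54 ± 0.08. Of 5 other interferon regulatory factors, 3 rose and 2 fell, with Irf8 at 1.45 ± 0.15, Irf3 at -0.69 ± 0.09, Irf1 at 0.63 ± 0.24 and Irf2 at -0.62 ± 0.18. Of 9 nucleic acid sensors, 4 rose and 1 fell, with the endosomal RNA receptor Tlr7 at 1.47 ± 0.18, Zbp1 at 0.88 ± 0.11, the DNA-sensing adaptor Sting1 at 0.81 ± 0.12 and Trim25 at 0.66 ± 0.28. Among 10 feedback inhibitors 3 rose and 1 fell. Usp18, which removes Isg15 from proteins, rose by 1.45 ± 0.29, while Socs2, a target of growth hormone signalling, fell by 2.99 on the log2 scale (SE 0.57).

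Of 13 Kupffer cell and macrophage markers, 12 were higher in DL-Ethionine long and Cd14 was lower (-2.21 ± 0.24), with C1qb at 1.74 ± 0.14, C1qa at 1.62 ± 0.15 and Aif1 at 1.61 ± 0.24. Their summed linear signal ran from 33685 to 43262 in DL-Ethionine long, against 14317 to 17901 in the NGTX control. The defining marker Clec4f was higher by 1.52 ± 0.17. Of 10 T and NK cell markers tested 5 were higher. Over the 15 on the array the summed signal was 1067 to 1464 in DL-Ethionine long and 841 to 929 in the control. Of 7 dendritic cell markers 6 were higher (sums of 7507 to 9597 in DL-Ethionine long and 2955 to 4494 in the control). Of 7 endothelial markers 6 were higher (sums of 7858 to 8168 in DL-Ethionine long and 3129 to 4106 in the control). Of 13 hepatocyte markers 3 were higher and 4 lower (175507 to 176476 in DL-Ethionine long, against 194788 to 200688 in the control). In bulk liver, a change in the number of cells of a type and a change of RNA per cell cannot be told apart, and the part of these markers in the members' rise was not tested. The 3′ minus 5′ signal of Gapdh, a sign of RNA quality, was 0.689 ± 0.152 in DL-Ethionine long and 0.680 ± 0.207 in the control (log2, SD, n = 3 each).

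**Figure D2:**
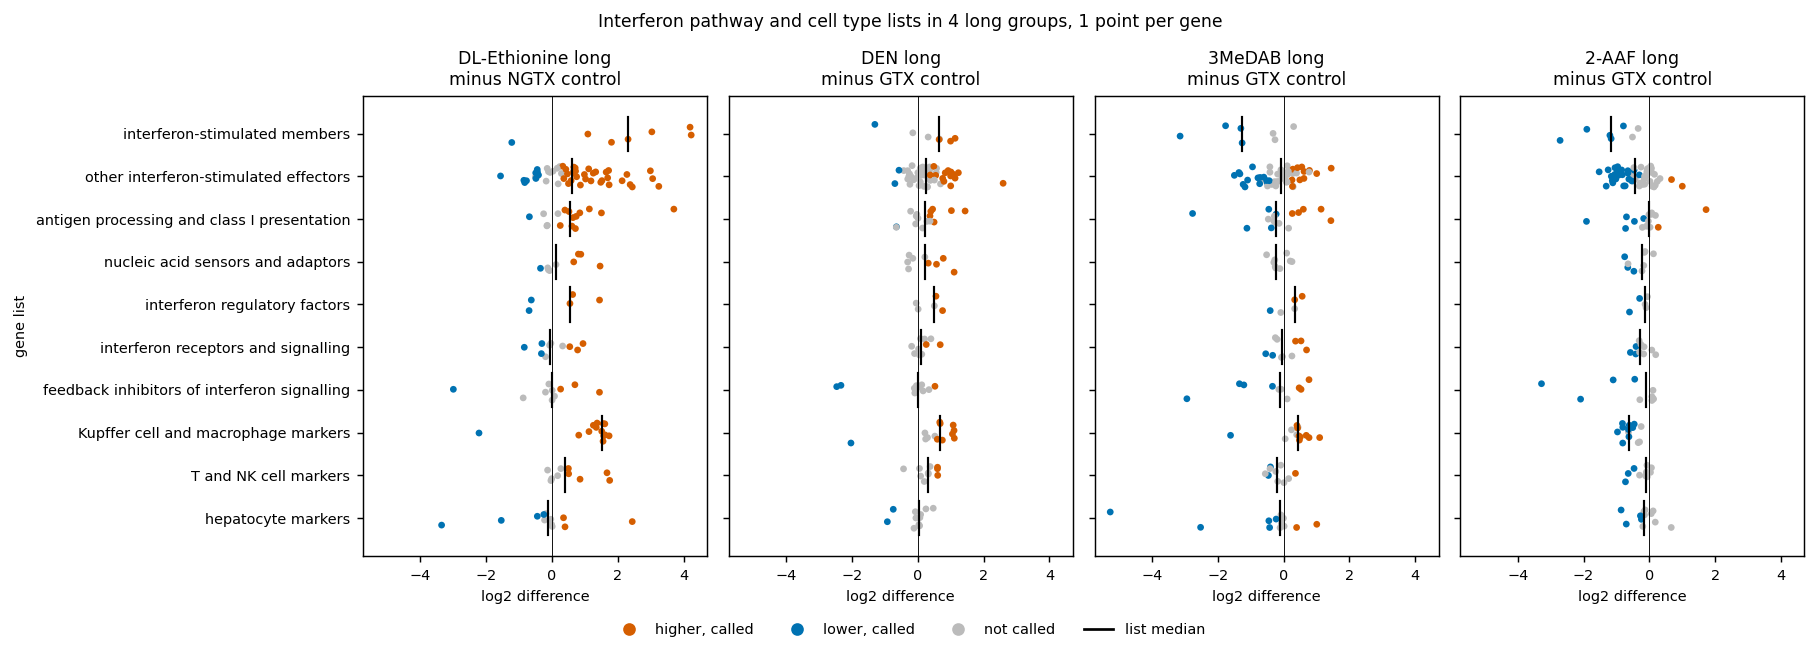
Log2 difference of each tested gene (x axis) in the interferon pathway lists and 3 cell type lists (y axis) for 4 long groups minus their control; colours mark calls and black bars the list medians. In DL-Ethionine long the members, other effectors and Kupffer cell markers lie mostly to the right of 0, and in 2-AAF long mostly to the left.

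In DEN long 3 members rose and Ifgga2l1 fell. Isg15 was at 10.12, 10.05 and 9.74 in DEN long, against 8.99, 9.05 and 8.88 in the GTX control, higher by 1.00 ± 0.22 (adjusted p = 0.00165). Mx1 was at 8.66, 8.44 and 8.05 in DEN long, against 7.15, 7.24 and 7.35 in the control, higher by 1.14 ± 0.33 (adjusted p = 0.0159). Oasl was at 7.76, 7.89 and 7.73 in DEN long, against 7.10, 7.12 and 7.21 in the control, higher by 0.65 ± 0.16 (adjusted p = 0.00421). In these 3 members no DEN long rat overlapped a control, and the same held for Ifgga2l1 and for Irf7, which was not called. The share of all genes without overlap is not given here. So 3 of 7 members were called higher, where 10.4% of genes were, and 1 lower, where 6.31% were: Ifgga2l1 was at 10.16, 10.17 and 10.09 in DEN long, against 10.88, 11.80 and 11.65 in the control (-1.30 ± 0.38, adjusted p = 0.0151). Irf7 (0.66 ± 0.29), Mx2 (0.32 ± 0.32) and Rtp4 (-0.15 ± 0.32) did not pass. The call of Mx1 was lost without rat 1 of DEN long or rat 1 of the control, and with only GTX arrays in the fit, and that of Ifgga2l1 without rat 3 of DEN long, or rat 2 or 3 of the control (adjusted p up to 0.0766 and 0.0816).

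Of the 52 other effectors, 14 rose and 2 fell in DEN long (list median 0.25 against 0.00 over all genes). Gbp4, a guanylate-binding protein, was higher by 2.59 ± 0.27, Cxcl10 by 1.24 ± 0.27, the nucleotide kinase Cmpk2 by 1.14 ± 0.29 and Gbp2 by 1.09 ± 0.34. Tlr7 (1.11 ± 0.18) and Sting1 (0.78 ± 0.12) were again among 4 of 9 sensors that rose, and none of the 9 fell. Kupffer cell and macrophage markers were higher in 8 of 13, with Cd14 lower, and summed to 30715 to 35171 in DEN long, against 21199 to 23349 in the control. Of 7 dendritic cell markers 3 were higher (sums of 8202 to 9621 in DEN long, against 4386 to 5414 in the control). The part of these markers in the members' difference was not tested.

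In DEN short, of the members only Ifgga2l1 was called against the GTX control (-1.55 ± 0.42, adjusted p = 0.0101; 10.3% of genes were called lower), and its call was lost without rat 3 of DEN short (adjusted p = 0.17). DEN long exceeded DEN short in Isg15 (0.86 ± 0.25) and Mx1 (1.19 ± 0.37), where 18.6% of genes were called higher. Both differences failed with rat 3 of DEN short left out, and Mx1 also without rat 2 of DEN short or rat 1 of DEN long (adjusted p up to 0.109).

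In 2-AAF long 5 of 7 were called lower against the GTX control, where 16.1% of genes were. Rtp4 was at 8.70, 9.12 and 7.75 in 2-AAF long, against 9.92, 10.73 and 10.62 in the control (-1.90 ± 0.32, adjusted p = 4.82e-05). Ifgga2l1 was at 9.52, 8.85 and 7.82 in 2-AAF long, against 10.88, 11.80 and 11.65 in the control (-2.71 ± 0.38, adjusted p = 3.12e-06). Neither gene overlapped between the groups, and rat 3 of 2-AAF long was the lowest in both. Mx1, Mx2, Irf7 and Oasl, the last not called, did not overlap between the groups either. Rat 3 was also far below its fellows in Mx1 (6.52, 6.52 and 5.09) and Mx2 (7.75, 7.62 and 6.34). The calls of Mx1 (-1.20 ± 0.33), Mx2 (-1.16 ± 0.32) and Irf7 (-0.79 ± 0.29) all failed without that rat, and with only the groups compared in the fit. Over all settings and rats left out, adjusted p was up to 0.103 for Mx1, 0.0985 for Mx2 and 0.379 for Irf7. The Irf7 call also failed without any 1 of the 3 controls, with only GTX arrays in the fit, and with quantile normalization. Isg15 (-0.51 ± 0.22, adjusted p = 0.078) and Oasl (-0.34 ± 0.16, adjusted p = 0.104) did not pass.

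In 3MeDAB long 4 of 7 members were lower, where 17.6% of genes were. Ifgga2l1 was at 8.07, 8.56 and 8.28 in 3MeDAB long, against 10.88, 11.80 and 11.65 in the control, its lowest training group (-3.14 ± 0.38, adjusted p = 3.73e-08). Rtp4 was at 8.64, 8.60 and 8.75 in 3MeDAB long, against 9.92, 10.73 and 10.62 in the control (-1.76 ± 0.32). Mx1 was at 5.81, 5.75 and 6.29 in 3MeDAB long, against 7.15, 7.24 and 7.35 in the control (-1.30 ± 0.33), and Mx2 at 7.10, 6.99 and 7.33, against 8.23, 8.68 and 8.29 (-1.26 ± 0.32). These 4 genes did not overlap between the groups, but neither did Irf7 and Oasl, which were not called. The share of all genes without overlap is not given here. The calls of the 4 genes held with each rat left out and in all 10 alternative settings. Isg15 did not follow these 4 genes. It was at 8.89, 9.34 and 9.60 in 3MeDAB long (0.31 ± 0.22 against the control, adjusted p = 0.255), and higher than in 3MeDAB short by 0.97 ± 0.22 (adjusted p = 0.000465; 39.9% of genes were called higher between these durations). In the same comparison of durations Ifgga2l1 (-1.49 ± 0.38) and Rtp4 (-0.95 ± 0.32) were lower in long, where 19.3% of genes were.

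In 2-AAF long 23 of 52 other effectors were lower and 2 higher, led by Irgm (-1.53 ± 0.26), Gbp2 (-1.31 ± 0.34), Helz2 (-1.25 ± 0.19) and Igtp (-1.16 ± 0.19). The count of lower effectors was 15 without rat 3. In 3MeDAB long 15 were lower and 11 higher, with the chemokine Cxcl9 at -1.49 ± 0.25, Gbp4 at 1.45 ± 0.27, Irgm2 at -1.36 ± 0.12 and the RNA-sensing enzyme Oas1a at -1.33 ± 0.30. Of 13 Kupffer cell and macrophage markers, 9 were lower in 2-AAF long (summed signal 12502 to 15689, against 21199 to 23349 in the control), and without rat 3 it was 5 of 13. In 3MeDAB long 8 of 13 were higher (25382 to 32556), and 3 to 7 of 13 with 1 rat left out, the moves of over 1.5 times being without rat 3 of 3MeDAB long or rat 1 or 2 of the control. With quantile normalization, only GTX arrays in the fit or all 65 arrays in 1 fit, this count also moved by over 1.5 times, and over the alternative settings it ran from 5 to 10. Quantile normalization gave 7 higher effectors in place of 11. Of 13 hepatocyte markers 5 were lower and none higher in 2-AAF long, while 5 were lower and 3 higher in 3MeDAB long. Usp18 was lower in both, at -1.10 ± 0.29 in 2-AAF long and -1.21 ± 0.29 in 3MeDAB long. The part of the markers in the members' differences was not tested, and in 2-AAF long the Gapdh 3′ minus 5′ signal spread more than in the control (0.472 ± 0.413, against 0.510 ± 0.107, SD, n = 3 each). In 3MeDAB long that signal was 0.240 to 0.393, below all 3 controls at 0.443 to 0.633, and its part in the result was not tested.

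**Figure D3:**
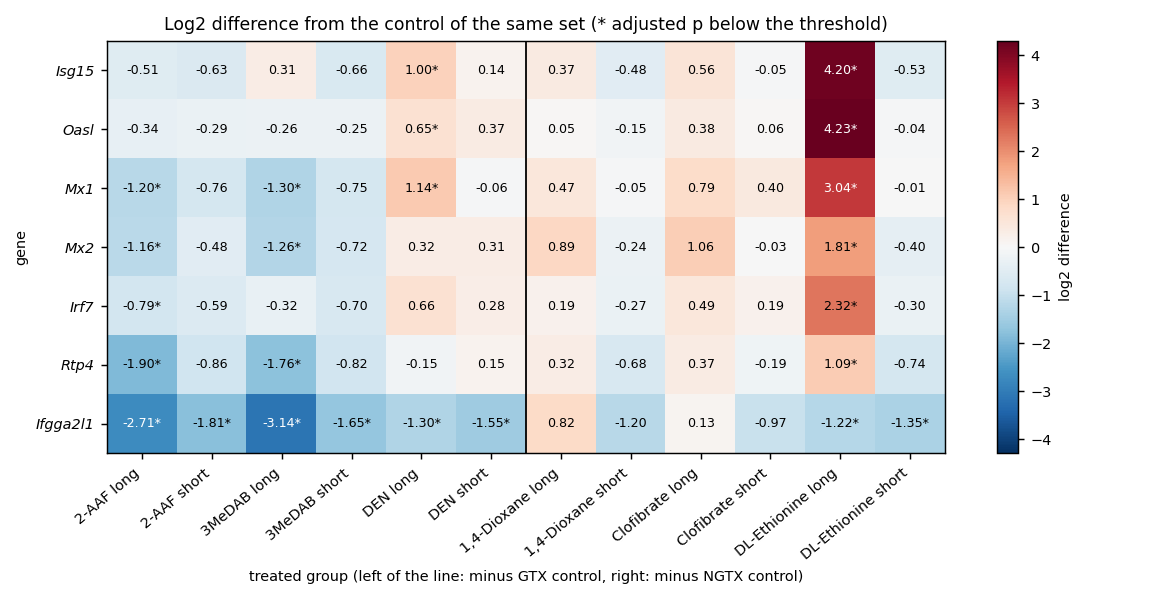
Log2 difference of each member (rows) in each treated group (columns) minus the control of its set, printed in each cell; red is higher, blue lower, and a star marks an adjusted p under 0.05. The DL-Ethionine long column holds the reddest cells, and the Ifgga2l1 row is blue in all columns but 1,4-Dioxane long and Clofibrate long.

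Set directly against each other, the genotoxic compounds separated. DEN long was higher than 2-AAF long in all 7 members, where 16.5% of genes were, by 0.99 ± 0.16 (Oasl) to 2.34 ± 0.33 (Mx1). DEN long was also higher than 3MeDAB long in all 7, where 16.6% of genes were, by 0.69 ± 0.22 (Isg15) to 2.43 ± 0.33 (Mx1). Both differences use the same DEN long rats. Without rat 3 of 2-AAF long, Ifgga2l1 no longer passed in the first pair (adjusted p = 0.0714), and without rat 1 of 3MeDAB long Isg15 no longer passed in the second (adjusted p = 0.0921). Other effectors were higher in 35 of 52 against 2-AAF long and in 25 of 52 against 3MeDAB long, with Gbp4 at 3.06 ± 0.27 in the first pair and Oas1a at 1.90 ± 0.30 in the second. Between 2-AAF long and 3MeDAB long, 1 member passed: Isg15 was lower in 2-AAF long (-0.82 ± 0.22, adjusted p = 0.00353), where 34.2% of genes were. Its groups overlapped, and over all genes this comparison has a median of -0.15.

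DEN short was higher than 2-AAF short in Isg15 (0.77 ± 0.25) and Oasl (0.65 ± 0.18), where 4.08% of genes were, and higher than 3MeDAB short in Irf7 (0.99 ± 0.33), Isg15 (0.80 ± 0.25) and Oasl (0.62 ± 0.18), where 7.44% of genes were. DEN short has 2 rats, and each of these 5 calls was kept in 1 of 5 fits with a rat left out (adjusted p up to 0.237). No member passed between 2-AAF short and 3MeDAB short, where 1.79% of genes passed in either direction, and none had an unadjusted p under 0.05.

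1,4-Dioxane and Clofibrate gave no call of any member against the NGTX control, at either duration. Few genes passed at all in the long groups: 0.163% in 1,4-Dioxane long and 0.136% in Clofibrate long, with 5.5% in 1,4-Dioxane short and 2.9% in Clofibrate short. The values do not show that the members were unchanged. Mx2 was at 8.91, 9.63 and 9.28 in Clofibrate long, against 8.37, 8.07 and 8.21 in the control, a difference of 1.06 ± 0.32 with an interval from 0.40 to 1.71 (adjusted p = 0.215). All 3 treated rats lay above all 3 controls. At an unadjusted p under 0.05 limma gave 4 of 7 members in Clofibrate long, with 1016 of 11013 genes, and 1 in Clofibrate short, with 1793 genes. It gave 2 members in 1,4-Dioxane long, with 1033 genes, and 3 in 1,4-Dioxane short, with 2241 genes. Mx2 in 1,4-Dioxane long was placed likewise (8.89, 8.999 and 9.43; 0.89 ± 0.32, adjusted p = 0.291). Between 1,4-Dioxane and Clofibrate 0% of genes passed at either duration. At an unadjusted p under 0.05 it was 211 genes, with 1 member, between the long groups and 1128 genes, with 0 members, between the short groups.

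1,4-Dioxane long was higher than 1,4-Dioxane short in 3 members, where 3.07% of genes were. Ifgga2l1 was at 11.42, 11.98 and 11.16 in long, against 9.15, 9.73 and 9.60 in short, a difference of 2.02 ± 0.38 (adjusted p = 0.00138). The 2 durations were far apart, and this call held with each rat left out. Isg15 (0.85 ± 0.22) kept its call in 3 of 6 such fits and Mx2 (1.14 ± 0.32) in 0 of 6 (adjusted p up to 0.0967 and 0.138). Of the other effectors 12 were higher and 1 lower in long, and the immunity-related GTPases Irgm (1.57 ± 0.26) and Igtp (1.38 ± 0.19) led them, with Dtx3l (1.02 ± 0.17) and Helz2 (0.95 ± 0.19). None of 13 Kupffer cell and macrophage markers passed between these durations. Clofibrate long against short gave no member call, where 3.47% of genes passed in either direction, with Mx2 at 1.09 ± 0.32 (adjusted p = 0.0531), Ifgga2l1 at 1.10 ± 0.38 (adjusted p = 0.114) and Isg15 at 0.62 ± 0.22 (adjusted p = 0.145).

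By calls, Ifgga2l1 had a course of its own. It was lower than the control in 4 of the 6 short groups by the test: 2-AAF short (-1.81 ± 0.38; 4.22% of genes lower), 3MeDAB short (-1.65 ± 0.38; 0.672% of genes lower), and the DEN and DL-Ethionine short groups given above. In 1,4-Dioxane short it was at -1.20 ± 0.38 (adjusted p = 0.0558) and in Clofibrate short at -0.97 ± 0.38 (adjusted p = 0.18). The 3 short groups of a set share 1 control, and no other member was called in these 6 short groups. At an unadjusted p under 0.05 limma gave 6 members in 3MeDAB short (1483 of 11013 genes) and 4 in 2-AAF short (2464 genes). It gave 3 in DL-Ethionine short (2068 genes) and 1 in DEN short (3294 genes). These counts include Ifgga2l1. In 3MeDAB short and 2-AAF short every member had a mean below the control. The lack of calls thus does not show that the other members were unchanged there. The calls in 3MeDAB short and DL-Ethionine short were each lost when any of several rats was left out. The first failed without rat 3 of 3MeDAB short or rat 2 or 3 of the GTX control (adjusted p up to 0.155). The second failed without rat 2 or 3 of DL-Ethionine short or any 1 of the 3 NGTX controls (adjusted p up to 0.215). Both calls also failed with only the groups compared in the fit and with 1 fit of all 65 arrays. Over all settings and rats left out, the difference ran from -1.93 to -1.38 in 3MeDAB short and from -1.73 to -1.11 in DL-Ethionine short. The call in 2-AAF short held with each rat left out.

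Irgm and Igtp, also immunity-related GTPases, stand in the list of other effectors and were picked out here after their values were seen. Irgm was called lower in 2-AAF short (-0.90 ± 0.26), 1,4-Dioxane short (-1.49 ± 0.26), Clofibrate short (-1.08 ± 0.26) and DL-Ethionine short (-1.45 ± 0.26). It did not pass in 3MeDAB short (-0.70 ± 0.26) or DEN short (-0.61 ± 0.29). Igtp was called lower in all 6 short groups, from -0.63 ± 0.19 in 2-AAF short to -1.16 ± 0.19 in 1,4-Dioxane short. In DL-Ethionine long the same genes went apart, with Irgm higher (0.67 ± 0.26) and Igtp lower (-0.49 ± 0.19). The number of other effectors called lower was 11 of 52 in DL-Ethionine short (3.05% of all genes), 13 in 2-AAF short (4.22%), 4 in DEN short (10.3%) and 1 in 3MeDAB short (0.672%). The 4 in DEN short are below the share over all genes. It was 10 in 1,4-Dioxane short and 7 in Clofibrate short, where 5.5% and 2.9% of all genes were called in either direction. The number of other effectors called higher was at most 2 in each short group. Across the 22 groups, after centring each set, Igtp had the profile most like that of Ifgga2l1 among 10043 genes (Pearson r = 0.78, and 0.79 without DL-Ethionine long), and Trim5 was ninth (r = 0.75). Between them stood Bmf (0.77), Spata13 (0.77), Mreg (0.76), Ndst1 (0.76), Mbl2 (0.76), Inhba (0.76) and Spon2 (0.75), and after Trim5 came Cldn2, Phf8 and Efna1. None of these is in the lists used here, so most of the nearest profiles were not those of listed interferon genes. This ranking was made after the values of Ifgga2l1 were seen.

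The correlation over all 22 groups of a member's group means with the mean of the remaining members was 0.93 for Mx1 and Irf7, 0.92 for Mx2, 0.84 for Isg15, 0.83 for Rtp4, 0.78 for Oasl and 0.16 for Ifgga2l1. Isg15, Oasl and Irf7 were close to each other (r = 0.91 to 0.95). Irf7 was also close to Mx1 (r = 0.95), and Mx2 and Rtp4 formed another close pair (r = 0.93). The loosest pairs among the 6 members other than Ifgga2l1 were Oasl with Rtp4 (r = 0.56), Isg15 with Rtp4 (0.62) and Oasl with Mx2 (0.67). Without DL-Ethionine long the values against the remaining members were 0.93 for Mx2, 0.88 for Mx1, 0.87 for Irf7, 0.86 for Rtp4, 0.76 for Isg15, 0.70 for Oasl and 0.46 for Ifgga2l1. Outside the members, the 12 genes with the profile most like their mean were Oas1a (r = 0.91), Slfn4 (0.90), RT1-T24-3 (0.89), Ifi44 (0.88), Usp18 (0.88), Ifi44l (0.86), Klrk1 (0.86), Pnp (0.85), Ly6c (0.85), LOC100910973 (0.84), Lgals3bp (0.83) and Ly6e (0.83). Without DL-Ethionine long these 12 values ran from 0.70 (Lgals3bp and Ly6e) to 0.91 (Oas1a). These correlations describe groups that share arrays and normalization, and carry no test.

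Within each training set the level of a member can be ordered. For Isg15 the GTX set ran from DEN long (9.97 ± 0.20, SD) through 3MeDAB long (9.28 ± 0.36), DEN short (9.11 ± 0.09, n = 2), the control (8.97 ± 0.09), 2-AAF long (8.46 ± 0.47) and 2-AAF short (8.35 ± 0.43) to 3MeDAB short (8.31 ± 0.14). Below DEN long, each of these neighbours overlapped with the next in its rats, except DEN short, whose lower rat equalled the highest control to 2 decimals. The NGTX set ran from DL-Ethionine long (12.98 ± 0.32) through Clofibrate long (9.35 ± 0.29), 1,4-Dioxane long (9.16 ± 0.12), the control (8.78 ± 0.17), Clofibrate short (8.73 ± 0.03) and 1,4-Dioxane short (8.31 ± 0.16) to DL-Ethionine short (8.25 ± 0.50). DL-Ethionine long stood clear of the next group, and the steps below 1,4-Dioxane long and below Clofibrate short were the other ones without overlap. For Oasl, DEN long (7.79 ± 0.09) and DEN short (7.51 ± 0.03) stood above the control (7.14 ± 0.06), and the other 4 GTX groups at 6.80 to 6.89. In the NGTX set Oasl was at 11.33 ± 0.14 in DL-Ethionine long and at 6.95 to 7.48 in the other groups.

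For Mx1 the GTX groups ran from DEN long (8.38 ± 0.31) through the control (7.25 ± 0.10) and DEN short (7.19 ± 0.12), whose rats overlapped, and the 2-AAF and 3MeDAB short groups (both at a mean of 6.49) to 2-AAF long (6.05 ± 0.82) and 3MeDAB long (5.95 ± 0.29), which overlapped. The NGTX groups other than DL-Ethionine long (10.08 ± 0.20) spanned 6.99 to 7.83. For Mx2, DEN long (8.72 ± 0.48) overlapped with DEN short (8.71) and the control (8.40 ± 0.24) at the top of the GTX set, with 3MeDAB long (7.14 ± 0.18) lowest. In the NGTX set Mx2 was at 10.03 ± 0.19 in DL-Ethionine long, 9.27 ± 0.36 in Clofibrate long, 9.11 ± 0.29 in 1,4-Dioxane long and 7.82 to 8.22 in the short groups and the control. Irf7 was highest in DEN long (9.87 ± 0.21) and lowest in 2-AAF long (8.42 ± 0.78) within the GTX set, and spanned 8.66 to 9.45 in the NGTX groups other than DL-Ethionine long (11.27 ± 0.18). Rtp4 fell into 3 bands in the GTX set: DEN short (10.57 ± 0.05), the control (10.42 ± 0.44) and DEN long (10.27 ± 0.06) at the top, 3MeDAB short (9.61 ± 0.13) and 2-AAF short (9.56 ± 0.25) between, and 3MeDAB long (8.66 ± 0.08) and 2-AAF long (8.52 ± 0.70) at the bottom. Rats overlapped inside each band, except that DEN short lay above DEN long. Ifgga2l1 was highest in the control of the GTX set (11.44 ± 0.49), while in the NGTX set 1,4-Dioxane long (11.52 ± 0.42) had the highest mean. Its rats overlapped with those of Clofibrate long (10.83 ± 0.71), which overlapped with the control (10.70 ± 0.24).

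The test set answers a narrower question, whether 1 compound differs from the other 3 at the same duration. Its arrays have lower minima, 2.28 to 2.40 against 3.23 to 3.41 in the training sets, so levels are not set across. DCP long was lower than the other 3 compounds in 3 members, where 19.9% of genes were. Rtp4 was at 8.39, 8.05 and 7.63 in DCP long, against group means of 9.24 (ME long), 9.05 (SN long) and 9.45 (Urethane long), a difference of -1.22 ± 0.21 (adjusted p = 0.000152). Mx2 was at 6.88, 6.00 and 5.83 in DCP long (-1.25 ± 0.24, adjusted p = 0.00049) and Isg15 at 7.18, 6.55 and 6.86 (-0.91 ± 0.20, adjusted p = 0.00138). Rtp4 did not overlap with the other long groups, Mx2 and Isg15 did, and all 3 calls held with each rat left out. Of 13 Kupffer cell and macrophage markers 3 were higher and 1 lower in DCP long. Of 7 endothelial markers 5 were higher and 0 lower, with sums of 3570 to 3862 in DCP long against 1799 to 2895 in the other long groups. Their part in the result was not tested. Of 50 other effectors 15 were lower and 7 higher. In DCP short 1 member was called, Rtp4 at -0.63 ± 0.21, where 28.5% of genes were lower, and this was lost without rat 1 or 2 of DCP short (adjusted p up to 0.105).

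Urethane long was higher than the other 3 compounds in 4 members, where 6.06% of genes were: Mx2 by 1.03 ± 0.24, Isg15 by 0.92 ± 0.20, Rtp4 by 0.68 ± 0.21 and Irf7 by 0.67 ± 0.20. Isg15 was at 7.79, 8.14 and 8.78 and Mx2 at 7.55, 7.72 and 8.58 in Urethane long. Rat 3 was the highest of its group in Isg15, Mx2, Rtp4, Irf7, Oasl and Ifgga2l1, and without it none of these 4 calls passed (adjusted p of 0.0619 for Isg15, 0.094 for Mx2, 0.209 for Irf7 and 0.204 for Rtp4). Those of Irf7 and Rtp4 also failed without rat 2, and that of Rtp4 without rat 3 of DCP long or rat 1 or 3 of ME long. Of the other effectors 5 of 50 were higher and 3 lower, and of 13 Kupffer cell and macrophage markers 0 were higher and 2 lower. The effectors were led by Oas1a at 1.42 ± 0.25, Rsad2 at -1.21 ± 0.24, Cxcl9 at -0.995 ± 0.32 and Parp10 at 0.41 ± 0.10. In Urethane short, Ifgga2l1 was at 8.37, 8.34 and 6.67, lower than the other 3 compounds by 1.39 on the log2 scale (adjusted p = 0.0484, where 4.12% of genes were lower). This call was kept in 3 of 12 fits with a rat left out, and rat 3 is far below its fellows. In ME short, Isg15 was higher by 0.66 ± 0.20 (adjusted p = 0.0423, where 4.75% of genes were), a call kept in 2 of 12 such fits. In ME short 3 of the 13 Kupffer cell and macrophage markers were higher and 0 lower. No member passed in ME long (2.97% of genes passed in either direction), SN short (14.3%) or SN long (5.2%).

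**Figure D4:**
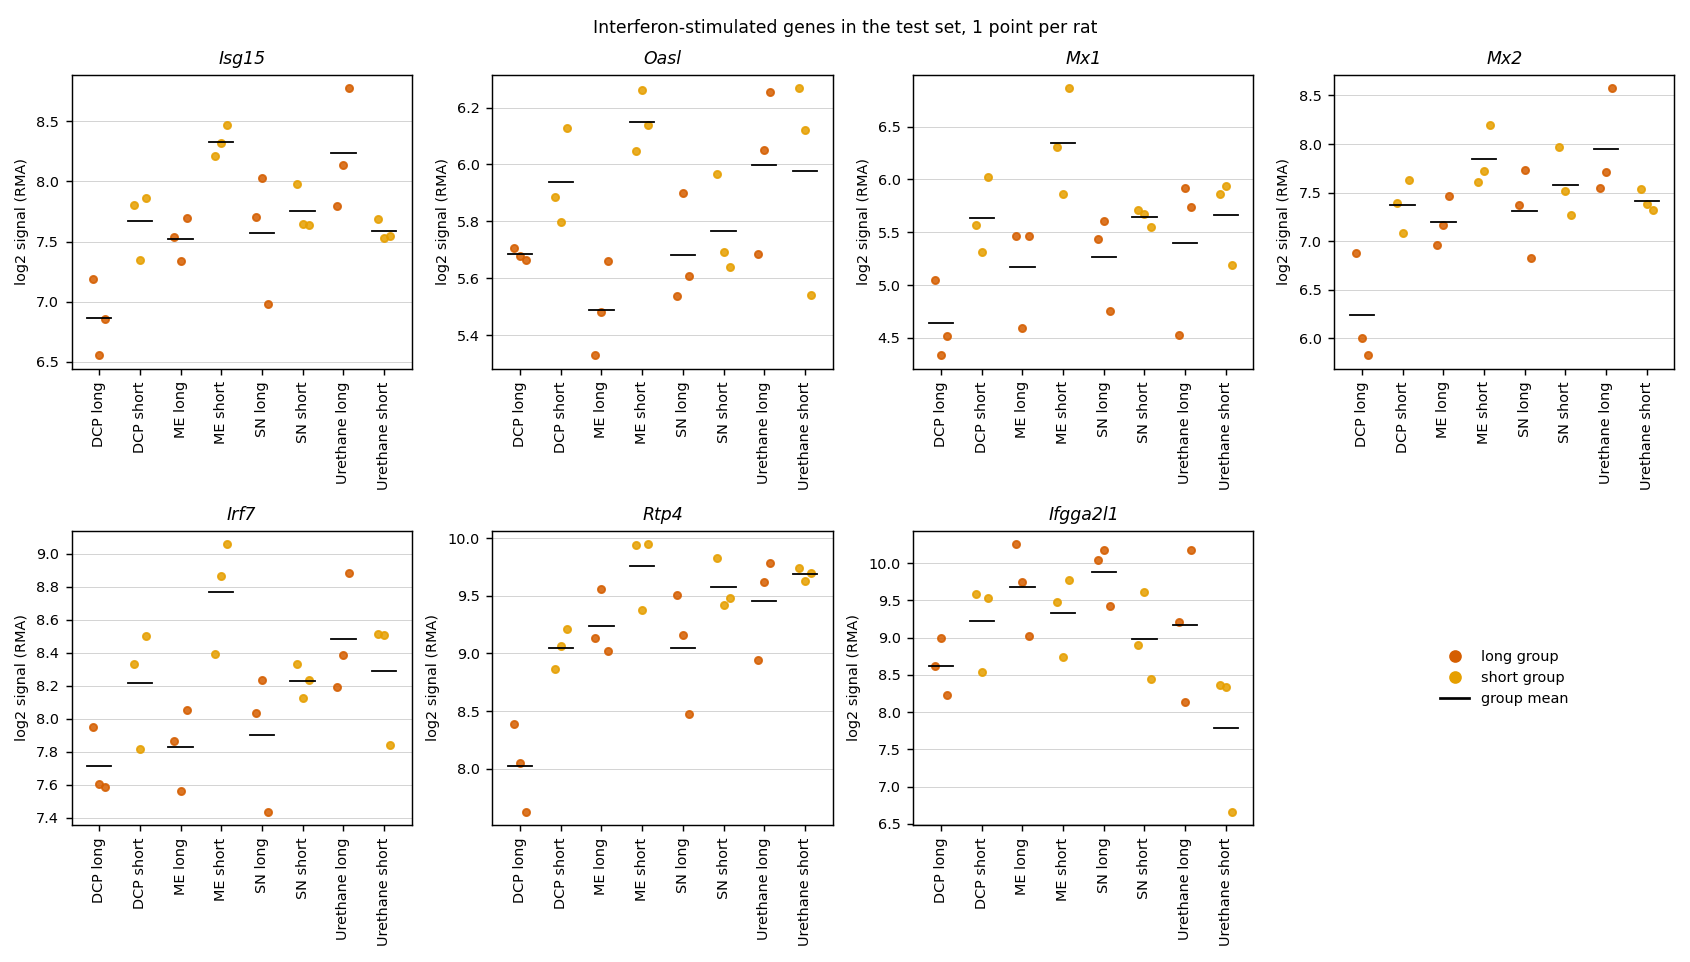
Log2 signal of the 7 members (y axes, RMA values) in each rat of the test set, long left of short for each compound; black bars are group means. Isg15, Mx2 and Rtp4 have their lowest means in DCP long, and Mx2 its highest in Urethane long.

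Between durations, long was below short in 2 test compounds. In DCP 4 members were lower in long, where 14.2% of genes were: Mx2 (-1.14 ± 0.29), Rtp4 (-1.02 ± 0.25), Mx1 (-0.998 ± 0.35) and Isg15 (-0.81 ± 0.24). In ME 4 members were lower in long, where 8.23% of genes were: Mx1 (-1.17 ± 0.35), Irf7 (-0.94 ± 0.24), Isg15 (-0.81 ± 0.24) and Oasl (-0.66 ± 0.17). Mx2 and Rtp4 in DCP and Oasl in ME kept their calls with each rat left out. Isg15 in DCP failed without rat 3 of DCP short or rat 2 of DCP long, and Mx1 in DCP kept its call in 2 of 6 such fits. In ME, Irf7 failed without rat 2 of ME long, Mx1 kept its call in 3 of 6 such fits and Isg15 in 1 of 6. Other effectors were lower in 10 of 50 and higher in 4 in DCP, and lower in 17 and higher in 0 in ME. In DCP the chemokine Cxcl10 (-1.94 ± 0.31) led them, with Rsad2 and Oas1a (-1.03 ± 0.30 and -1.03 ± 0.31) and Uba7 (-0.89 ± 0.15), the enzyme that activates Isg15 for its attachment. In ME it was Gbp2 (-1.55 ± 0.50), Plac8 (-1.36 ± 0.30), Oas1a (-1.35 ± 0.31) and Ifitm1 (-0.97 ± 0.22). Kupffer cell and macrophage markers were lower in ME long in 11 of 13 (summed signal 8889 to 9252, against 13142 to 25710 in ME short), and in DCP long in 1 of 13 (10628 to 12916, against 12612 to 13444 in DCP short). Their part in the members' differences was not tested. No member passed between durations in SN (4.85% of genes in either direction) or Urethane (13.7%), and 2-AAF long was below 2-AAF short in Rtp4 (-1.04 ± 0.32, where 17.5% of genes were lower), which was lost without rat 3 of 2-AAF long or rat 2 of 2-AAF short (adjusted p up to 0.135).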

How the data were processed

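The authors deposited 1 table of log2 values, 31099 probe sets by 65 arrays, made with RMA per the series' design text and the submitters' processing notes. RMA's version is not given in the sources used here. RMA corrects background, normalizes arrays by quantiles and summarises probes. The lowest values did not overlap between the 3 sets, so they appear to have been normalized apart, and comparisons stay within a set. Precision is limited by the number of arrays.

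In the platform annotation 20826 probe sets have 1 symbol, 436 have several and 9780 have none. Control probe sets (57) were dropped. Each gene is represented by its probe set with the highest mean. Genes above the median of the table (log2 6.03, in the test set 5.64) in at least 2 arrays were kept. limma (3.58.1, R 4.3.3) was fitted with 1 mean per group, to 41 training arrays (11013 genes) and to 24 test arrays (10220 genes). Values after ± are standard errors unless marked SD. P-values are two-sided and adjusted (Benjamini-Hochberg) over all genes within a comparison. The scripts were tested on simulated data. The highest correlation between 2 arrays was 0.998 and no 2 were identical. Correlations between same-numbered rats had medians of -0.0071 (NGTX set), 0.0154 (GTX set) and -0.0057 (test set), and ran from -0.42 to 0.33. The numbers were not used as pairs, though medians near these cannot show that no groups shared a day or batch.

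The text names the 7 members, in each other list the 4 genes with the largest called difference in a comparison, and the 12 genes with the most similar profile. Members and lists were chosen with earlier results of these data known. Marker sums are of linear signals. Alternatives were no or a stricter filter, the mean of all probe sets, every probe set on its own, trend and robust fitting, quantile normalization of all 65 columns, other sets of arrays in the fit, the replicate number as a block, and leaving out each rat.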

Additional observations from a re-analysis of the deposited data

Results flagged for a closer look

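A difference between the long and the short group of 1 compound is also the difference between their differences from the control, since both share 1 control. That control has no time label, so compound and duration cannot be told apart in it. By the test of long against short, 15 member and compound combinations of the training sets stood out. In DL-Ethionine these were Isg15 (4.73), Oasl (4.27), Mx1 (3.05), Irf7 (2.61), Mx2 (2.21) and Rtp4 (1.84), all higher in long (log2, adjusted p from 9.07e-20 for Oasl to 1.71e-05 for Rtp4). In 1,4-Dioxane they were Ifgga2l1 (2.02), Mx2 (1.14) and Isg15 (0.85), and in DEN Mx1 (1.19) and Isg15 (0.86), all higher in long. In 3MeDAB Isg15 was higher in long (0.97), while Ifgga2l1 (-1.49) and Rtp4 (-0.95) were lower, and in 2-AAF Rtp4 was lower (-1.04). Groups of 2 or 3 rats are too small for a test of single outlying rats.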

How the results depend on the processing

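Over all comparisons of a kind, the members gave 9 higher and 15 lower calls against controls, 30 higher and 3 lower between compounds of a set, 12 higher and 11 lower between durations, and 5 higher and 5 lower among test compounds. These sums count the same rats in several comparisons and serve only to follow the settings. The share of all genes called ran from 0% (1,4-Dioxane long against Clofibrate long, either direction) to 39.9% (3MeDAB long against short, higher). No call changed direction in any alternative. Among test compounds the 5 higher calls became 3 with 1 fit of all 65 arrays, and ranged from 1 to 6 with 1 rat left out (1 without rat 3 and 3 without rat 2 of Urethane long). The 5 lower calls there ranged from 3 to 6 (3 without rat 1 of DCP short). With the replicate number as a block (correlations of same-numbered rats from -0.42 to 0.33), 88 of 90 called member differences kept their call. The other 2 were Isg15 in ME short and Ifgga2l1 in Urethane short. Calls kept were 86 of 90 with no filter, 87 of 87 with a stricter one, 86 of 90 with quantile normalization, 75 of 89 with only the groups compared in the fit, and 478 of 592 with 1 rat left out. The cause of these moves was not tested. The number of rats limits these results: leaving 1 out of a group of 2 or 3 moves both the mean and the spread, and the fit then assumes that the remaining rats vary like the other groups.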
